A study of Homo sapiens with 6 samples.

Results

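NeuroD1 binding was set against the promoter mark H3K4me3 inside a single cell line, H524, with every NeuroD1 region sorted by how far it lay from the closest H3K4me3 region in those cells. H524 is an established human small cell lung cancer line, and the cells were grown in culture and left untreated. Members were all 20593 distinct NeuroD1 regions of the H524 peak list, of 61250 regions in the 4 peak lists of the series, and the reference was the list of 18595 H524 H3K4me3 regions. Entries with an identical interval counted as 1 region with their highest score. The 4 classes were regions that overlapped H3K4me3 by at least 1 bp, regions within 1 kb of it, regions 1 to 50 kb away and regions over 50 kb away. Chromatin immunoprecipitation recovers the DNA bound by a protein or carrying a mark, and sequencing turns it into a list of enriched regions. The study made 1 NeuroD1 (Cell Signaling antibody), 1 H3K4me3 (Abcam antibody) and 1 input library from H524 and from a second untreated small cell lung cancer line, H82. The H82 lists, with their own NeuroD1 and H3K4me3 regions, serve here as a readout that did not enter the classes. Each antibody and line had 1 library, so no difference could be set against replicate error and no p-value is given. Intervals are 95% intervals, exact Clopper-Pearson for shares and Newcombe for differences between shares, and they cover counting error only. Neighbouring regions are not independent of each other, and the read depth behind the lists is unknown. The lists hold no expression values, so the identity of the lines was not checked against marker genes, and regions are named by their hg19 position.

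NeuroD1 belongs to the basic helix-loop-helix factors; paired with an E-protein it recognises E-box sequences and drives neuronal and endocrine differentiation. In small cell lung cancer it defines a neuroendocrine subtype. H3K4me3 is the trimethylated form of lysine 4 of histone H3, found on the nucleosomes that flank active transcription start sites, whereas distal enhancers usually carry little of it. A region on or beside the mark is therefore commonly read as promoter-proximal, and one far from it as distal.

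Most NeuroD1 regions of H524 lay away from the mark. Overlap with H3K4me3 was found for 3301 regions (16.0%, 15.5 to 16.5) and a gap of up to 1 kb for 1073 (5.21%, 4.91 to 5.52). The range of 1 to 50 kb held 6806 regions (33.1%, 32.4 to 33.7), and the largest class, with 9413 regions (45.7%, 45.03 to 46.4), lay over 50 kb away. In covered length the order was the same, with 2013 kb in the overlapping class, 526 kb within 1 kb, 4016 kb at 1 to 50 kb and 5348 kb beyond 50 kb. The median gap was 281 bp (quartiles 103 and 560) in the class within 1 kb, 18.5 kb (8.20 and 32.4) in the next and 144 kb (85.4 and 270) in the farthest, where the most remote region was 3405 kb from H3K4me3. At the outer boundary the classes ran into each other: regions at 45 to 50 kb and at 50 to 55 kb had median widths of 490.5 and 481 bp, and 9.86% and 9.61% of them overlapped NeuroD1 of H82. At the inner boundary, the 291 regions that overlapped the mark by at most 100 bp and the 265 with a gap of at most 100 bp had the same median percentile by score, 45.5, and 18.2% and 23.8% of them overlapped NeuroD1 of H82. Around 1 kb the windows were small, with 37 regions in the last 100 bp before the boundary and 54 in the first 100 bp after it. Their median percentiles were 53.4 and 36.5, and 51.4% and 72.2% of them had another NeuroD1 region within 10 kb.

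Scores were deposited by the authors without a header and are taken here to be −log10 q-values. Classes were compared only by ranks inside the H524 NeuroD1 list, as percentiles in which 100 is the highest score. NeuroD1 regions 1 to 50 kb from the mark scored highest, with a median percentile of 53.4, against 48.4 beyond 50 kb, 46.1 on the mark and 45.5 within 1 kb. Scores above the median were found in 53.4% (52.2 to 54.5) of the regions at 1 to 50 kb, 49.4% (48.4 to 50.4) of those beyond 50 kb and 46.0% (44.3 to 47.7) of those on the mark. The share on the mark minus that of the farthest class was −3.36 points (−5.33 to −1.38), and minus that of the class at 1 to 50 kb it was −7.33 points (−9.40 to −5.26).

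**Figure D1:**
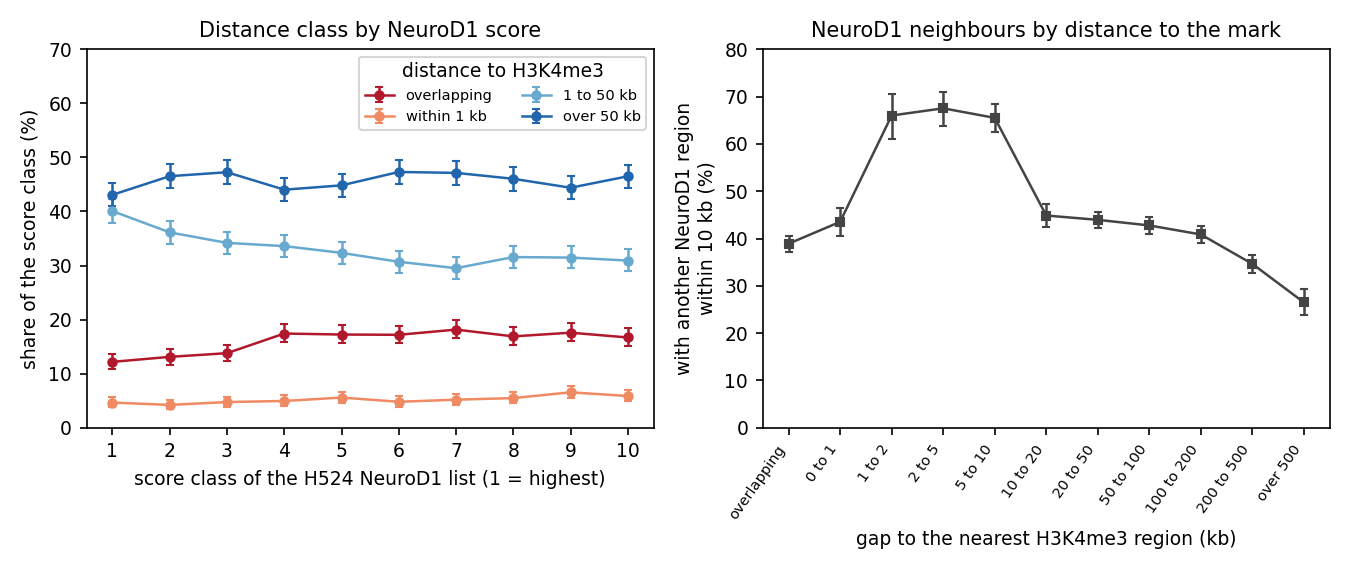
Left, the share of each of 10 score classes of H524 NeuroD1 regions (class 1 holds the highest scores) that falls in each distance class; right, the share of regions with another NeuroD1 region within 10 kb, by gap to the nearest H3K4me3 region in kb. Bars are exact 95% intervals. The share at 1 to 50 kb falls from 40.1% in class 1 to 30.9% in class 10, and neighbours are most frequent, at 65.5% to 67.5%, for gaps of 1 to 10 kb.

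With the list divided into 10 score classes of near-equal size, the middle distances were the ones that gained with score. Regions at 1 to 50 kb made up 40.1% (37.9 to 42.2) of the highest-scoring class and 30.9% (28.9 to 33.0) of the lowest. The share on the mark went the other way, from 12.2% (10.8 to 13.7) to 16.7% (15.1 to 18.4), while the share beyond 50 kb was between 43.1% and 47.3% in all 10 classes. The very top of the list had more regions on the mark than the highest of the 10 classes. Among the 100 highest-scoring regions 23 overlapped H3K4me3 (15.2% to 32.5%), 8 lay within 1 kb, 50 at 1 to 50 kb and 19 beyond 50 kb. Chromosome 8 supplied 8, 1, 13 and 7 of them, although it held only 927 of the 20593 regions. Without chromosome 8 the 100 highest-scoring regions divided into 18 (11.03% to 26.9%), 10, 49 and 23, and of the 500 highest-scoring 81 were on the mark (16.2%, 13.1 to 19.7). Of the 1000 highest-scoring it was 126 (12.6%, 10.6 to 14.8). A stretch of 2 Mb on chromosome 8 held 86 regions, with a median percentile of 99.9 for its 12 regions on the mark, and supplied the highest ranks of the list. Chromosome 8 is therefore given apart below. The input libraries were not used here, and the part that the number of copies of this stretch has in its scores, ranks and widths was not tested.

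Width varied little among the classes, apart from narrower regions in the class within 1 kb, which the overlap rule shapes in part. The median was 494 bp (quartiles 357 and 726) on the mark, 393 bp (313 and 570) within 1 kb, 479.5 bp (343 and 718) at 1 to 50 kb and 465 bp (340 and 696) beyond 50 kb. Regions wider than the list median of 470 bp made up 53.4% of the overlapping class and 49.2% of the farthest class, a difference of 4.20 points (2.22 to 6.18). This direction changed with the overlap rule. When at least 50% of the NeuroD1 region had to be covered by H3K4me3, the difference turned to −5.09 points (−7.43 to −2.73). In the class within 1 kb only 36.4% (33.6 to 39.4) were wider than the median, and the difference from the farthest class was −12.7 points (−15.7 to −9.64). A wide region beside a mark reaches it more easily and then counts as overlapping, so the rule itself takes wide regions out of this class. Placed by their centre, regions up to 250 bp outside an edge had a median width of 502 bp, and those at 500 to 1000 bp 452 bp. For centres up to 250 bp inside an edge it was 414.5 bp. Several summits, listed for 12.1% of all NeuroD1 regions, were found in 12.2% (11.1 to 13.3) of the overlapping class, 7.55% (6.04 to 9.30) of the class within 1 kb, 13.0% (12.2 to 13.8) at 1 to 50 kb and 11.9% (11.3 to 12.6) beyond 50 kb.

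The 5 highest-scoring regions on the mark, outside chromosome 8, each crossed an edge of an H3K4me3 region, and none lay wholly inside it. In hg19, the first was chr19:10828181-10829016, 836 bp wide with a score of 108 and rank 13, which shared 293 bp with a 701 bp H3K4me3 region. At chr15:98503439-98504010 (score 99.7, rank 15) the overlap with the mark was 17 bp. The region chr17:57231707-57233362 (score 86.2, rank 19) met the right end of a strong 1792 bp H3K4me3 region of rank 107. At chr17:77679844-77681400 (score 80.1, rank 24) the overlap was 88 bp with a mark of score 1.45, at percentile 7.66 of its list. The last of the 5, chr20:45607024-45608094 (score 67.7, rank 29), overlapped a 482 bp mark by 329 bp and belonged to a group of 5 NeuroD1 regions. All 5 overlapped a NeuroD1 region of H82, and of these only the chr17 region of rank 19 also carried H3K4me3 in H82. Overlap with H82 NeuroD1 was usual at such ranks. It was found for all 18 regions on the mark among the 100 highest-scoring outside chromosome 8, against 9.98% of the whole list. On any chromosome, the 3 highest were on chromosome 8, led by chr8:127416792-127426493 (9702 bp, 13 summits, rank 1, score 1048) with a 1550 bp mark near its right end, and it was not found in H82. The widest outside chromosome 8 was chr14:36963790-36967052, with 3263 bp and 7 summits but rank 3943.

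Beside the mark, within 1 kb, the leading regions outside chromosome 8 had scores from 43.9 to 60.5. The first was chr16:30661733-30662681 (rank 37), separated by 229 bp from a 403 bp H3K4me3 region. It was followed by chr17:74260711-74261396 (rank 51, 615 bp from a mark of rank 552) and chr17:29034608-29036057 (rank 69, 299 bp away). The remaining 2 were chr9:130829417-130830507 (rank 70, 57 bp away) and chr19:14317619-14319028 (rank 78, 980 bp away). These 5 regions were also all overlapped by NeuroD1 of H82, as were 8 of the 10 regions of this class among the 100 highest-scoring outside chromosome 8. A chromosome 8 region ranked above the 5, chr8:127178875-127182334 (rank 22), and was not found in H82. The widest outside chromosome 8 was chr17:48634109-48636124, with 2016 bp and rank 2950.

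At 1 to 50 kb the leading regions outside chromosome 8 scored from 85.4 to 119, and those on the mark from 67.7 to 108. The first was chr17:72328244-72329926 (score 119, rank 11), 5.46 kb from a 425 bp mark. A second high region of the same group of 10, chr17:72337634-72340226 (rank 21), lay 14.9 kb from that mark. The others were chr14:24835304-24838618 (3315 bp, 4 summits, rank 12, 29.6 kb away), chr17:79924512-79926705 (rank 16, 4.59 kb away) and chr19:3655648-3656541 (rank 20, 28.9 kb away). The widest region of this class outside chromosome 8 was chr17:55991089-55995951, with 4863 bp and 6 summits but only rank 868. NeuroD1 of H82 overlapped 3 of the 5 highest, and 21 of the 49 regions of this class among the 100 highest-scoring outside chromosome 8. On any chromosome the 3 highest were again on chromosome 8, led by chr8:128650475-128660675 (10201 bp, 19 summits, rank 2), which was found in H82.

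Beyond 50 kb the highest scores outside chromosome 8 were lower, from 46.7 to 68.1. They belonged to chr17:26367981-26369085 (rank 28, 148 kb from the mark), chr3:108907340-108908348 (rank 40, 598 kb away), chr9:137675296-137675937 (rank 59, 140 kb away), chr17:47991158-47992728 (rank 61, 53.2 kb away) and chr17:71972838-71973752 (rank 63, 226 kb away). None of them carried H3K4me3 in H82 either, and 3 overlapped NeuroD1 of H82. Among the 100 highest-scoring regions outside chromosome 8, it overlapped 12 of the 23 in this class. Chromosome 8 held the highest of this class, chr8:128386645-128390052 (rank 4), at 50.1 kb just beyond the boundary. The widest outside chromosome 8 was chr1:62642915-62646029, with 3115 bp, 6 summits and rank 2611.

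Overlap with the mark was mostly partial. Of the 3301 overlapping regions, 2014 (61.0%, 59.3 to 62.7) crossed an edge of the H3K4me3 region, 1039 (31.5%, 29.9 to 33.1) lay inside it and 248 (7.51%, 6.64 to 8.46) spanned it from end to end. The median overlap was 317 bp (quartiles 217 and 448), which covered 69.0% of the NeuroD1 region. Regions inside the mark scored lowest, with a median percentile of 36.5, against 48.4 for regions across an edge and 67.2 for regions that spanned a mark. These kinds of overlap also sort NeuroD1 regions by width, with medians of 401, 521.5 and 866 bp. Among NeuroD1 regions of 300 to 600 bp the median percentiles were closer, at 33.7, 40.7 and 45.1. The median width of the mark was 1373 bp around regions inside, 724 bp at an edge and 365.5 bp under spanning regions, an order that these kinds of overlap fix in part. The median NeuroD1 percentile had no steady course with the score of the mark. It was 48.4 on marks at percentiles 0 to 25 and at 25 to 50 of the H3K4me3 list, 43.9 at 50 to 75 and 46.7 at 75 to 100.

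NeuroD1 regions at the edge of the mark were found in the second line more often than regions inside it. Over the whole H524 list, 2055 regions, or 9.98%, overlapped an H82 NeuroD1 region, and 2066 H82 regions, or 53.6% of that list, overlapped one of H524. Inside the mark the share was 7.99% (6.41 to 9.81), at an edge it was 19.4% (17.7 to 21.2), and for regions that spanned a mark it was 25.8% (20.5 to 31.7). The spanning regions were the widest, and among those of 300 to 600 bp only 6 of 63 were found in H82 (9.52%, 3.58 to 19.6). The difference between edge and inside was 11.4 points (8.97 to 13.8). Regions inside were also narrower (median 401 against 521.5 bp) and scored lower. Limited to the same widths, the difference was 6.08 points (3.08 to 8.91), and without the highest-scoring of 10 classes it was 8.51 points (6.17 to 10.7). In that highest class it was 12.2 points with an interval from −7.21 to 31.4, with 26 regions inside a mark.

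**Figure D2:**
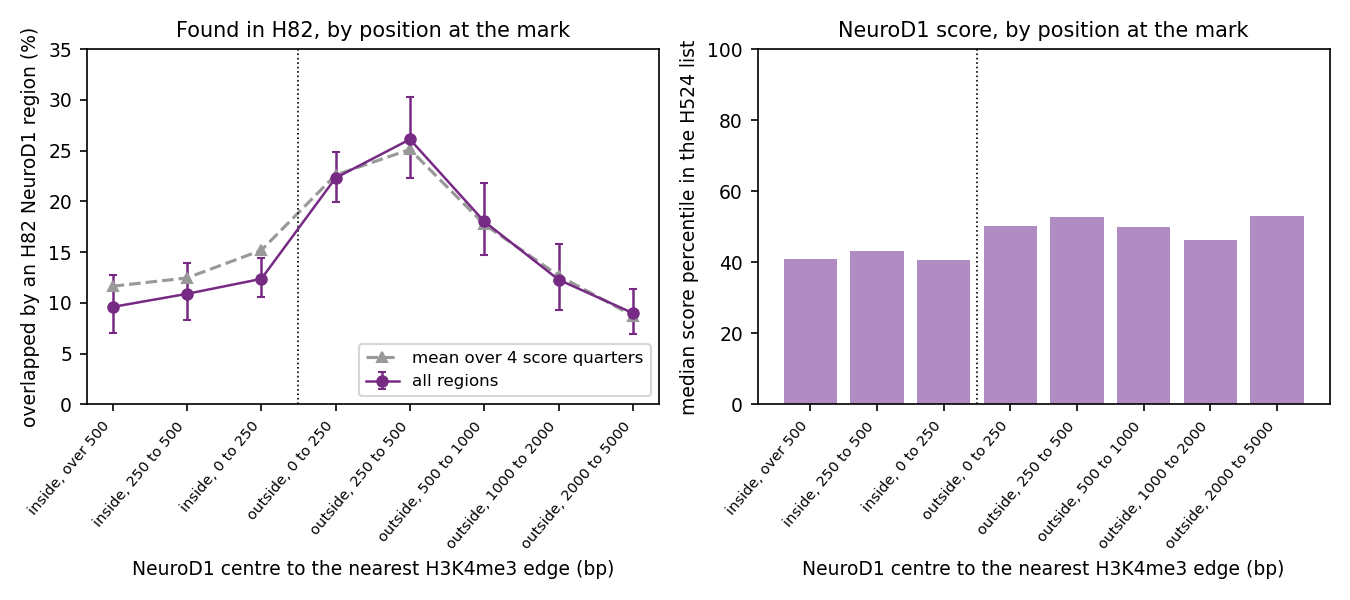
H524 NeuroD1 regions by distance in bp from their centre to the nearest H3K4me3 edge, with the edge as a dotted line. Left, the share overlapped by an H82 NeuroD1 region with exact 95% intervals, and its mean over 4 score classes as a dashed line; right, the median percentile by score. The share is highest at 250 to 500 bp outside the edge, with 26.1%, and is 9.61% over 500 bp inside it.

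Measured from the centre of the NeuroD1 region, the share found in H82 was highest just outside the mark. It was 9.61% (7.01 to 12.8) for 437 centres over 500 bp inside an H3K4me3 region and 12.4% (10.6 to 14.4) for the 1188 centres in the outermost 250 bp. It was 22.3% (19.9 to 24.9) for 1129 centres up to 250 bp outside the edge, 26.1% (22.3 to 30.3) for 490 centres at 250 to 500 bp and 18.0% (14.7 to 21.8) for 477 centres at 500 to 1000 bp. Beyond, it fell to 12.3% (9.35 to 15.8) at 1000 to 2000 bp and then to 63 of 700 centres (6.99% to 11.4%) at 2000 to 5000 bp. Averaged with equal weight over 4 score classes, these positions gave 11.6%, 15.2%, 22.6%, 25.1%, 17.8%, 12.7% and 8.75%. H82 regions placed at H82 marks and looked up in H524 ran from 57.6% (50.7 to 64.3) over 500 bp inside to 65.5% (60.5 to 70.3) up to 250 bp outside and 59 of 118 (40.7% to 59.3%) at 1000 to 2000 bp, with intervals that overlap between inside and outside. By the kind of overlap, however, H82 had an edge difference of similar size, with 65.1% of its regions across an edge and 54.3% of those inside a mark found in H524, 10.8 points apart (4.76 to 16.7).

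From the side of the mark, wide H3K4me3 regions met NeuroD1 more often than narrow ones. The share of marks that overlapped NeuroD1 was 7.31% (6.17 to 8.59) in the narrowest of 10 width classes (253 to 289 bp) and 43.3% (41.1 to 45.6) in the widest (1331 to 8052 bp). Per kb of mark, the number of NeuroD1 overlaps was 0.270 in the narrowest class and 0.263 in the widest, and between 0.253 and 0.308 in all 10. A count of overlaps from 1 bp favours short marks, since NeuroD1 regions reach them from outside. By NeuroD1 centres inside the mark, the number per kb was 0.0913 in the narrowest class (46 centres) and 0.216 in the widest (745 centres). Of the 18595 marks, 3230 met a single NeuroD1 region, 115 met 2, 7 met 3, and 1 mark each met 4 and 5. The mark with the most outside chromosome 8 was chr14:57276218-57284269, 8.05 kb wide with 15 summits, which met 5 NeuroD1 regions, 3 of them also found in H82. Next were chr3:119809095-119813216 and chr14:21149114-21153082 with 3 regions each, 1 and 0 of them found in H82.

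**Figure D3:**
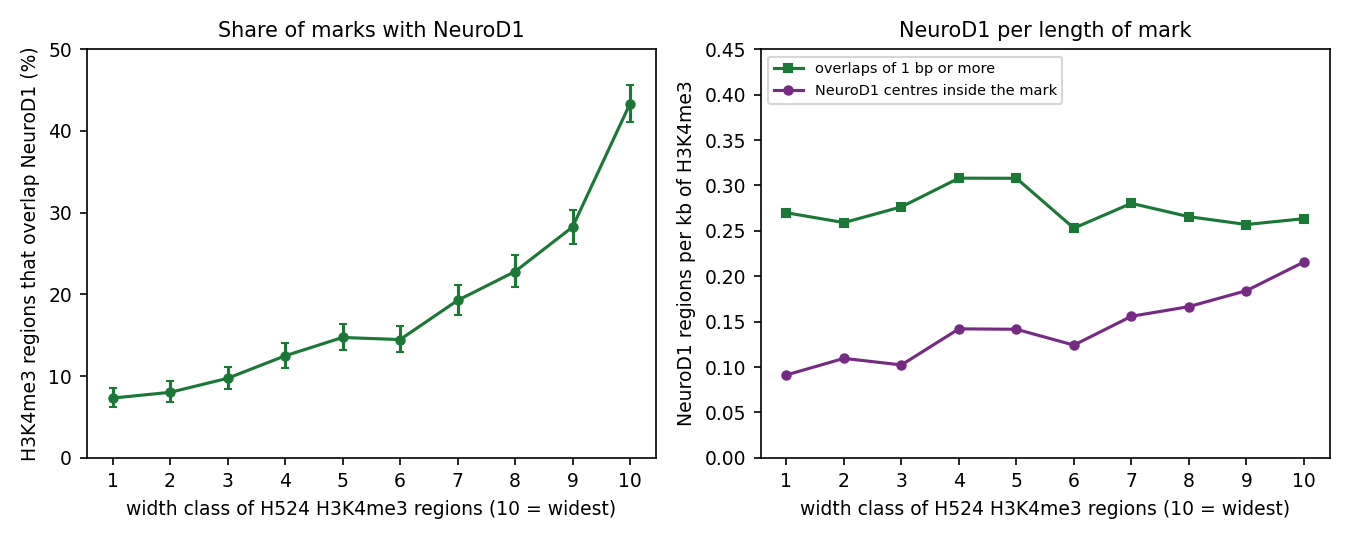
H524 H3K4me3 regions in 10 classes of width (10 is the widest): left, the share that overlaps a NeuroD1 region with exact 95% intervals, which rises from 7.31% to 43.3%; right, NeuroD1 per kb of H3K4me3, which stays between 0.253 and 0.308 for overlaps of 1 bp or more (green) and rises from 0.0913 to 0.216 for NeuroD1 centres inside the mark (purple).

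Regions on the H524 mark or within 1 kb were found in H82 more often than regions farther away. In percentage points the difference was largest in the highest score class. An H82 NeuroD1 region overlapped 16.3% (15.1 to 17.6) of the regions on the mark, 18.7% (16.4 to 21.2) of those within 1 kb, 9.30% (8.62 to 10.0) at 1 to 50 kb and 7.26% (6.74 to 7.80) beyond 50 kb, against 9.98% of all regions. The overlapping class exceeded the farthest by 9.04 points (7.71 to 10.4), and by 9.40 points (8.04 to 10.8) without chromosome 8. In the highest of 10 score classes the shares were 57.0% (50.6 to 63.2) on the mark and 56.3% (45.7 to 66.4) within 1 kb, but 21.0% (18.2 to 23.9) at 1 to 50 kb and 18.7% (16.2 to 21.4) beyond 50 kb. In the lowest class they were 4.94%, 6.61%, 2.67% and 2.51%. The difference between the overlapping and the farthest class fell from 38.3 points (31.5 to 44.7) in the highest class to 20.8 (15.1 to 26.9) in the second and 2.44 (0.248 to 5.38) in the lowest. It was above 0 in all 10 classes, with an interval that included 0 in class 8. Regions at 1 to 50 kb differed from the farthest class by 2.25 points in the highest class, with an interval from −1.52 to 6.05. Requiring H3K4me3 to cover at least 50% of the NeuroD1 region, instead of 1 bp, lowered the overall difference to 3.86 points (2.48 to 5.37), and the same requirement for H82 NeuroD1 as well lowered it to 2.67 points (1.56 to 3.91).

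**Figure D4:**
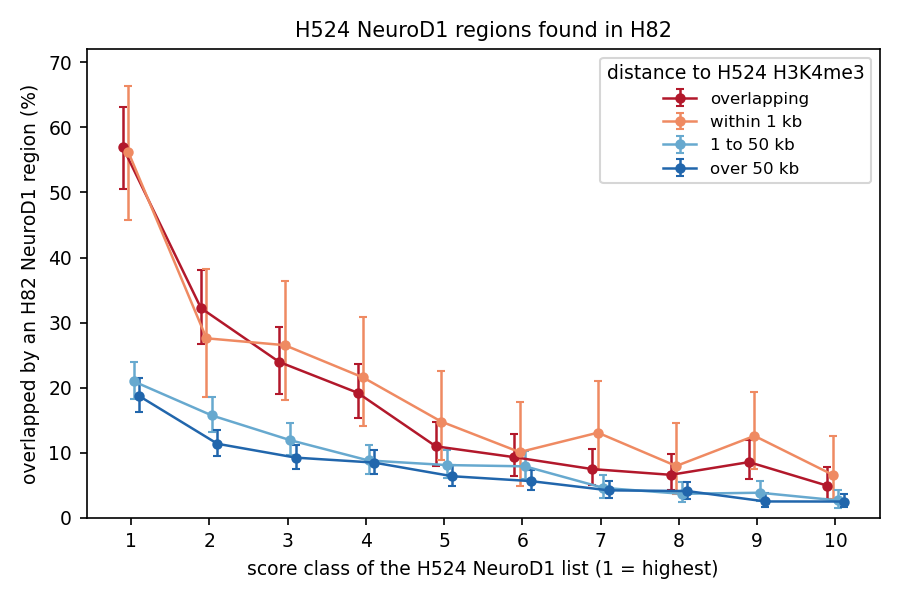
Share of H524 NeuroD1 regions overlapped by an H82 NeuroD1 region, in 10 score classes of the H524 list (1 is the highest) and in each distance class, with exact 95% intervals. In score class 1, regions on the mark or within 1 kb reach 57.0% and 56.3%, and regions farther away 21.0% and 18.7%.

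The presence of H3K4me3 in H82 moved with this sharing in every class. The H82 mark, which overlapped 15.6% of all H524 NeuroD1 regions, was found at 69.9% (68.3 to 71.5) of the regions on the H524 mark, 39.9% (36.9 to 42.9) within 1 kb, 4.54% (4.06 to 5.06) at 1 to 50 kb and 1.82% (1.56 to 2.11) beyond 50 kb. Among regions on the H524 mark, NeuroD1 of H82 was found at 19.9% (18.3 to 21.6) of the 2308 with the mark in H82 and at 7.85% (6.26 to 9.71) of the 993 without. Beyond 50 kb these shares were 36.8% (29.6 to 44.5) of 171 and 6.71% (6.21 to 7.24) of 9242. With the H82 mark present, the share over all scores thus rose with distance, with 28.5% (24.3 to 33.0) within 1 kb and 33.0% (27.8 to 38.6) at 1 to 50 kb. Without it, these 2 classes had 12.2% (9.82 to 15.0) and 8.17% (7.52 to 8.87). Within the highest score class, regions on the H524 mark that lacked it in H82 were found in H82 in 27 of 82 cases (32.9%, 22.9 to 44.2). Regions beyond 50 kb without the H82 mark were found there in 158 of 876 cases (18.0%, 15.5 to 20.7). With the H82 mark, the count in this score class was 116 of 169 (68.6%, 61.1 to 75.5) on the H524 mark. It was 31 of 41 (75.6%, 59.7 to 87.6) within 1 kb, 18 of 28 (64.3%, 44.1 to 81.4) at 1 to 50 kb and 8 of 11 (72.7%, 39.0 to 94.0) beyond 50 kb. In this score class the share thus had no steady rise with distance.

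NeuroD1 regions of H524 were often close to each other, most of all between 1 and 10 kb from a mark. Another NeuroD1 region lay within 10 kb of 42.8% of all regions. The share was 38.9% (37.2 to 40.6) on the mark, 43.5% (40.5 to 46.6) within 1 kb, 50.8% (49.6 to 52.0) at 1 to 50 kb and 38.4% (37.4 to 39.4) beyond 50 kb. The overlapping and the farthest class differed by 0.514 points (−1.41 to 2.45), but this call depended on the distances chosen. The difference was 2.16 points (0.348 to 4.0001) for neighbours within 5 kb, 2.09 (0.105 to 4.07) within 20 kb and 2.66 (0.626 to 4.71) with the farthest class starting at 100 kb. In finer steps the share was 66.0% at gaps of 1 to 2 kb, 67.5% at 2 to 5 kb and 65.5% at 5 to 10 kb, then 44.9% at 10 to 20 kb and 26.5% beyond 500 kb. Part of this maximum follows from the distances, because a region 1 to 10 kb from a mark that itself carries NeuroD1 mostly has that NeuroD1 region as a neighbour (602 of 612 had a neighbour). Where the nearest mark overlapped no NeuroD1, 52.4% (49.8 to 55.03) of 1418 regions at 1 to 10 kb had a neighbour, against 41.9% (40.3 to 43.5) of 3629 at 10 to 50 kb and 36.8% (35.7 to 37.9) of 7456 beyond 50 kb. This limit removes the effect of the distances only in part. Of the 18595 marks, 1830 had NeuroD1 within 1 kb without overlap, and such a region can be the neighbour.

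Joining regions with gaps of at most 10 kb gave 3417 groups of 2 or more regions and 11771 single regions. Groups of 5 or more, which held 6.24% of all NeuroD1 regions, took up 8.76% (8.10 to 9.45) of the class at 1 to 50 kb, 6.30% (5.50 to 7.19) of the overlapping class, 5.78% (4.46 to 7.35) of the class within 1 kb and 4.44% (4.03 to 4.88) of the farthest class. Of these 201 groups, 85 (42.3%, 35.4 to 49.4) contained a region on the mark and 57 (28.4%, 22.2 to 35.1) consisted wholly of regions beyond 50 kb. Over all groups and single regions these shares were 19.0% and 47.4%. An H82 NeuroD1 region was present in 44.7% of the 85 groups, 26.3% of the 57 and 38.3% of all 201.

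The group with the most regions on any chromosome was far from the promoter mark. It spanned 70.7 kb at chr16:85449075-85519817 with 21 NeuroD1 regions, 68.1 kb from the nearest H3K4me3, and 3 of the regions were found in H82. Similar groups without the mark were chr19:38525002-38568970, with 13 regions of a median percentile of 86.2, and chr1:54755023-54809110, with 13 regions of which 4 were found in H82. Their nearest marks were 125 and 60.7 kb away. A group of 15 regions at chr12:3310953-3361976 started on a mark at its left end and extended from there over 51.0 kb, with 13 of its regions at 1 to 50 kb. In contrast, 9 of 13 regions at chr18:72917196-72936561 were on H3K4me3, beside 8 marks in and around 19.4 kb, and none was found in H82. The same count of 9, among 12 regions, was reached at chr14:36961926-36990438, where NeuroD1 covered 60.9% of the span beside 12 marks and again no region was found in H82. In 2 smaller groups wholly on the mark, NeuroD1 regions were found in H82. All 6 regions at chr14:57273762-57284285 were on it, with 4 found in H82, as were all 6 at chr7:23507293-23514504, with 3 found in H82. These groups also differed in the H82 mark. It overlapped all 6 regions in both groups of 6, but 2 of the 13 regions on chromosome 18 and 0 of the 12 at chr14:36961926-36990438. Each of the 4 groups of 5 or more regions wholly on the mark held a region found in H82, against 38.3% of all 201 groups of this size. The group at chr1:51434089-51449583, with 6 of its 7 regions on the mark, had no region found in H82, although the H82 mark overlapped 5 of the 7. This group, the 2 groups of 6 and the group of 12 were chosen after their values were seen. The choice was by their number of regions on the mark.

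**Figure D5:**
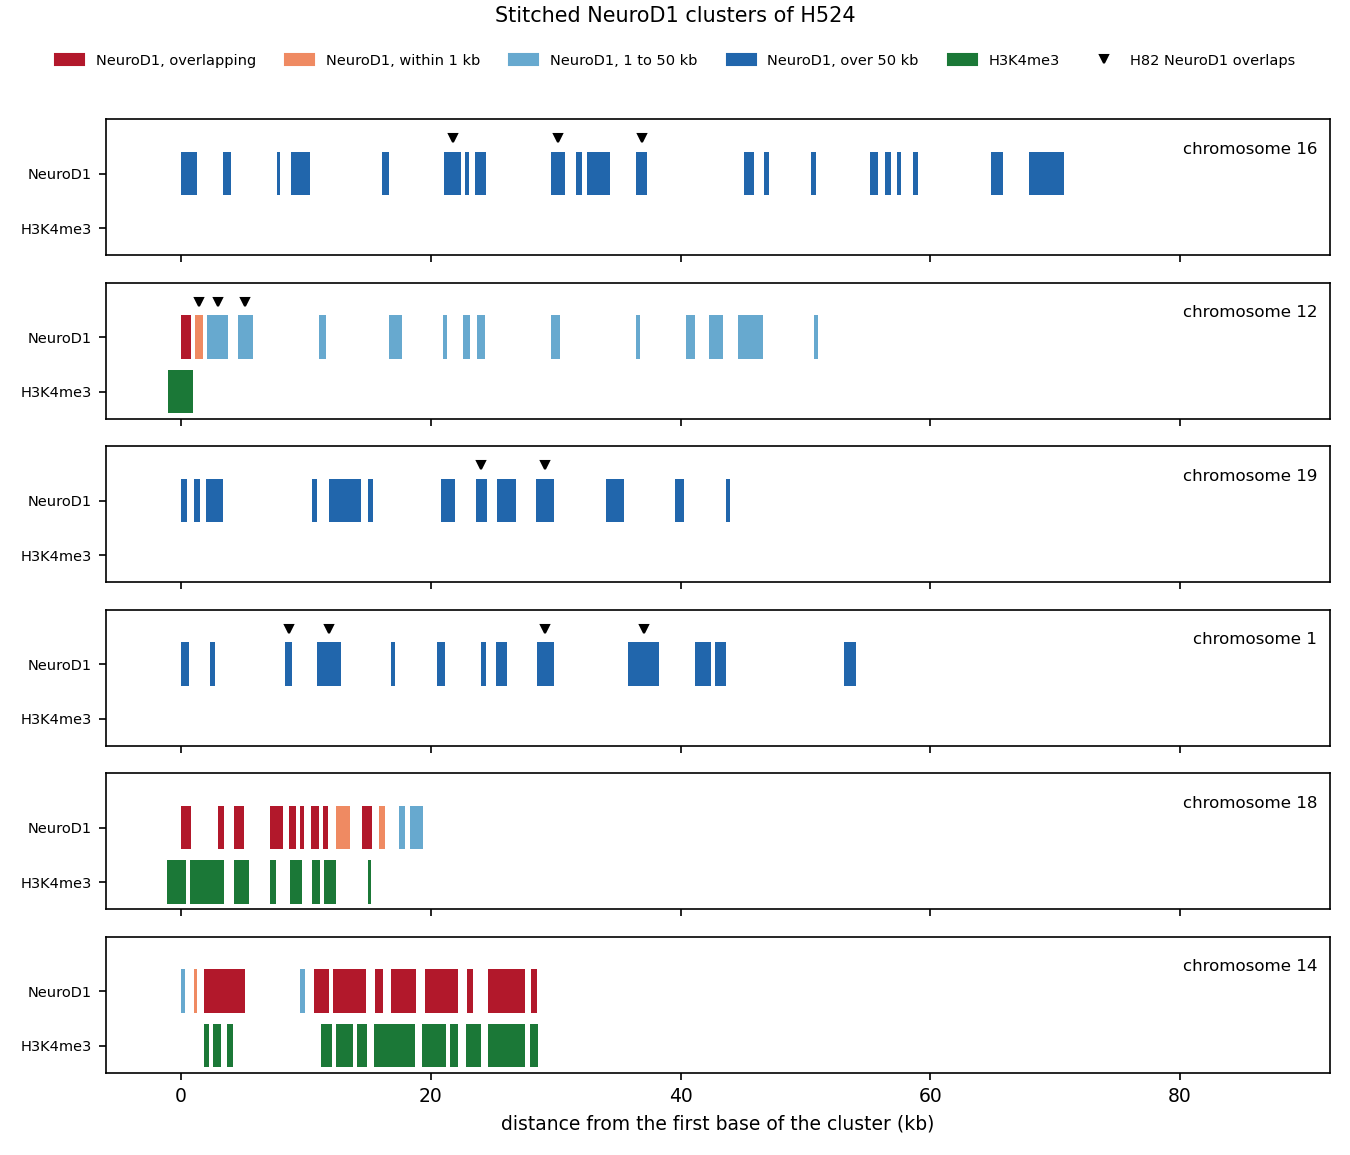
Groups of H524 NeuroD1 regions joined over gaps of at most 10 kb, drawn to scale from the first base of each group in kb, with NeuroD1 regions coloured by distance class above and H3K4me3 regions in green below. Triangles mark regions overlapped by H82 NeuroD1. The groups of 21, 13 and 13 regions on chromosomes 16, 19 and 1 have no mark, while 9 regions of each group on chromosomes 18 and 14 overlap one.

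The classes were spread unevenly over the chromosomes. Chromosome 19, with 1921 H3K4me3 regions for 659 NeuroD1 regions, had 31.9% (28.3 to 35.6) of its NeuroD1 regions on the mark and 9.71% (7.56 to 12.2) beyond 50 kb. Chromosomes 14 and 17 followed with 22.9% (20.5 to 25.5) and 22.7% (20.4 to 25.1) on the mark. Chromosome 14 had 0.741 H3K4me3 regions per NeuroD1 region, against 2.92 on chromosome 19. The lowest share was on chromosome 10, with 4 of 141 regions on the mark (2.84%, 0.778 to 7.10) and 73.0% (64.9 to 80.2) beyond 50 kb. Both lists were short there, with 144 H3K4me3 regions, or 1.02 per NeuroD1 region, and a median gap of 250 kb.

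In H82, sorted the same way, a larger part of a shorter list was near the mark, with 29.4% of 3854 regions on it, 9.55% within 1 kb, 29.5% at 1 to 50 kb and 31.6% beyond 50 kb. Clustering set the farthest class apart there. A neighbour within 10 kb was found for 21.5% of the regions on the mark, 21.5% within 1 kb, 24.6% at 1 to 50 kb and 10.5% beyond 50 kb. The share on the mark exceeded that of the farthest class by 10.9 points (7.99 to 13.9). As in H524, the share was highest at 1 to 50 kb, but here the share on the mark minus this one was −3.14 points (−6.59 to 0.327). In both lines regions on the mark were found in the other line more often than those far from it. H82 regions on the mark were found in H524 in 61.2% (58.3 to 64.1) of cases and those beyond 50 kb in 46.6% (43.8 to 49.5), a difference of 14.6 points (10.6 to 18.5). The lists of H82 and H524 differ in length, and the difference between the lines was not tested.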

How the data were processed

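Chromatin immunoprecipitation sequencing of untreated H524 and H82 cells had been deposited as 1 peak list per antibody and line, with coordinates in hg19 per the submitters' processing notes. These notes name Trimmomatic 0.38, Bowtie 1.1.2, SAMtools 1.9, Picard 1.118 and MACS2 2.1.1 without their roles. Caller settings, and whether input served as control, were not stated there. The authors deposited a score per entry without a header, taken here to be the −log10 q-value of the peak caller because the lowest, 1.304 in H524 NeuroD1, sits just above the value of a q of 0.05. The 23818 and 24306 entries of the H524 NeuroD1 and H3K4me3 lists became 20593 and 18595 distinct regions. Regions are printed 1-based.

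Gaps, classes and intervals were computed with Python 3.11.15, numpy 2.4.6, pandas 2.3.3 and scipy 1.17.1, and 800 regions planted at known distances all returned to their class. Regions were named by a rule: per class the 5 highest-scoring outside chromosome 8, the 3 highest on any chromosome and the widest, then the largest groups and the marks with most NeuroD1. Members, rule and tests were chosen with earlier results of these data known. The text leaves out a few names on chromosome 8. The position of regions relative to the edge of the mark, width classes of marks, NeuroD1 centres per kb of mark and the shares within score classes were added after the data were seen, as were 4 alternatives (means over 10 score classes for 3 results, and coverage required of H3K4me3 alone). Gene starts, gene lists and E-box content had been planned, but an hg19 annotation and genome were not used here, so regions have no gene names. The alternatives changed the overlap rule, width, score thresholds, boundaries, chromosomes, merging and clustering distance.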

Additional observations from a re-analysis of the deposited data

Results flagged for a closer look

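The relation of NeuroD1 score to the mark was listed because the lines went opposite ways. The share of regions above the median score of their list, on the mark minus beyond 50 kb, was −3.36 points (−5.33 to −1.38) in H524 and 7.43 points (3.38 to 11.4) in H82, which are −10.8 points apart. The difference was not tested between libraries.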

How the results depend on the processing

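No paired analysis was possible because each group holds 1 library. Gene starts and E-box content were planned and not run. The class shares moved with their definition. The share on the mark was 10.2% when 50% of the region had to be covered, 15.0% with 400 bp around each centre, 14.8% for NeuroD1 at or above the median score and 12.1% for H3K4me3 at or above it. The share within 1 kb was 11.1%, 6.11%, 4.80% and 3.82% under the same settings, and 7.14% with a boundary of 2 kb. The share at 1 to 50 kb was 34.8% and 26.6% under the NeuroD1 and H3K4me3 score limits, 31.1% with the boundary of 2 kb and 48.1% with an outer boundary of 100 kb. The share beyond was 57.5% under the H3K4me3 score limit and 30.7% beyond 100 kb. Leaving out chromosome 8 or not merging entries kept all 4 shares inside their intervals. The width difference between the overlapping and the farthest class turned to −5.09 points with 50% coverage, and could not be computed at a fixed width. The score difference stayed between −9.83 and −2.36 points in 8 alternatives, and the difference in H82 overlap between 2.67 and 11.8 points in 10. The neighbour difference of 0.514 points became 2.66 with the boundary of 100 kb, 2.16 with a clustering distance of 5 kb and 2.09 with 20 kb, each with an interval above 0, and over all 11 alternatives it ran from −0.955 to 2.66. Reads per region are unknown, so depth limits what the lists can show.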
